A study of Mus musculus with 2 samples.

Results

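The 10 genes described here are Ifit1, Ifit2, Ifit3, Isg15, Mx1, Oasl1, Oasl2, Rsad2, Ifi44 and Bst2, antiviral effectors whose transcription is induced by interferons. They were taken by symbol from the 24984 genes of a single-cell RNA-seq experiment on dystrophic mouse muscle, and each symbol had 1 entry in the gene table. Of the OAS family they hold the OAS-like genes Oasl1 and Oasl2. The genes were chosen by their higher measured levels in one of the libraries of this experiment, dKO against Ctrl, so the difference between the libraries is given as a description with no test. Ctrl mice were Pax7CreERT2/R26YFP; Yy1+/+; mdx, and dKO mice were Pax7CreERT2/R26YFP; Yy1f/f; mdx, so both genotypes carried the mdx mutation, which removes dystrophin, together with the Cre driver and the YFP reporter. The mdx allele came from the C57BL/10 ScSn DMDmdx strain. The transcription factor gene Yy1 was deleted in dKO by a tamoxifen-inducible Cre expressed from Pax7, a gene of muscle stem cells (MuSCs). Tamoxifen was injected into both genotypes at 1.5 months of age and hind limb muscles were taken 1 month later. This follows the methods of the study, whereas the treatment label of Ctrl names none, so whether both groups were injected is not settled by the labels. Live mononuclear cells were sorted as propidium iodide-negative after lysis of red cells, and the cells of 3 mice were pooled into 1 library per genotype, so no value below has a spread between animals.

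Interferon effectors are the proteins that a cell makes after type I, type II or type III interferon binds its receptor. Type I signalling runs from the receptor chains Ifnar1 and Ifnar2 through the kinases Jak1 and Tyk2 to a transcription factor complex that holds Stat2 and Irf9 and binds interferon-stimulated response elements in promoters. Type II interferon, Ifng, signals through the receptor chains Ifngr1 and Ifngr2. The IFIT proteins bind viral RNA, Isg15 is a ubiquitin-like protein that is attached to other proteins, Mx1 is a dynamin-like GTPase, Rsad2 (viperin) is a radical SAM enzyme and Bst2 (tetherin) holds budding virions at the cell membrane. These genes respond to interferon in most cell types, without any virus being present.

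The promoter sequences were looked at first, since interferon response elements hold spaced repeats of GAAA. Windows from 250 bases before to 50 bases after each RefSeq start on GRCm38.p6 were searched on both strands for GAAANNGAAA, and Mx1 had no entry. The motif was found for 5 of the 9 members with an entry, and for 3.99% of all 27025 genes with one. Of the 39 other interferon effectors with an entry, 18 held it. The stretches with matches are shown because the matched genes include both Bst2, the member found in most cells, and Rsad2, which in FAP-like cells was held by few. Each is written 5′ to 3′ on the strand of its gene, with the bases covered by a match in capitals and up to 12 flanking bases in lower case.
Isg15, chr4:156200863-156200908, reverse strand: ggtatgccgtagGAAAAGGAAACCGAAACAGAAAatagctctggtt
Bst2, chr8:71537575-71537614, reverse strand: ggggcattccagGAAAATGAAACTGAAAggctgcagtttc
Rsad2, chr12:26456551-26456584, reverse strand: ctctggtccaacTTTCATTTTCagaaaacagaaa
Ifit3, chr19:34583361-34583428, forward strand: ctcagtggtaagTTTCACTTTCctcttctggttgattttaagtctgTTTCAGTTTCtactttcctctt
Ifit1, chr19:34640773-34640825, forward strand: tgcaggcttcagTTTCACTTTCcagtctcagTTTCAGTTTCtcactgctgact
In Isg15 the matches overlapped as a run of 3, starting 78, 72 and 66 bases before the start of the gene, and in Bst2 2 overlapped, 130 and 124 bases before it. Rsad2, Ifit3 and Ifit1 held the motif on the opposite strand, so it reads as runs of TTTC in the stretches above, with 1, 2 and 2 matches. These letters did not occur in the windows of Ifi44, Oasl1, Oasl2 or Ifit2.

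On GRCm38 the IFIT genes lie in a cluster on chromosome 19, with Ifit2 at chr19:34550694-34576419, Ifit3 at chr19:34583531-34588731 and Ifit1 at chr19:34640871-34650009, all on the forward strand and within 99316 bases. Oasl2 at chr5:114896936-114912234 and Oasl1 at chr5:114923240-114937915 are neighbours on the forward strand of chromosome 5, 11005 bases apart. The others lie on the reverse strand. They are Isg15 at chr4:156199424-156200818, Rsad2 at chr12:26442746-26456452, Mx1 at chr16:97447035-97462907, Ifi44 at chr3:151730922-151749960 and Bst2 at chr8:71534255-71537456. Some have near copies that could share reads: Ifit3b held 252 UMIs (unique molecular identifiers, 1 for each captured RNA molecule) in Ctrl and 522 in dKO against 1264 and 2947 of Ifit3. Mx2 held 307 and 379 against 404 and 768 of Mx1, and Ifit1bl1 held 86 and 154 against 1660 and 2397 of Ifit1. How reads were divided within these pairs is uncertain, so the values of Ifit1, Ifit3 and Mx1 carry that uncertainty.

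After removal of cells with fewer than 500 genes and of likely doublets, 4010 Ctrl and 3080 dKO cells were kept, with medians of 7880 and 7806 UMIs. Their clusters were named from marker lists without the interferon genes. There were 13 classes with at least 30 cells in each library: fibro-adipogenic progenitor (FAP)-like cells (1090 in Ctrl and 1147 in dKO), monocyte and macrophage (MO/MP)-like cells (1162 and 932), endothelial cell (EC)-like cells (466 and 179), a cluster led by Fcna, Cd163 and Lyve1 that was left unnamed (257 and 198), and 9 smaller ones, among them MuSC-like cells (117 and 30). The Fcna cluster had 12 of 14 MO/MP markers enriched and is read as macrophage-like, but it is kept apart from the MO/MP-like class. The levels below are UMIs summed over the cells of a class and library, scaled to 1000000 UMIs of that class (CPM), with exact Poisson 95% intervals in parentheses. A ratio is the dKO CPM over the Ctrl CPM with its exact 95% interval. With 1 library per genotype these intervals cover counting error only. The deletion was seen in its target cells, where Yy1 had 369 UMIs in Ctrl (160 CPM, 144–177) and 3 in dKO (4.85 CPM, 1.0–14.2). Markers of other cell types were measured in the same way. The 14 MO/MP markers summed to 227 and 183 CPM in FAP-like cells of Ctrl and dKO, with none of them at 0, against 16271 and 16378 CPM where they belong, so in FAP-like cells they were lower in dKO. The FAP markers summed to 520.1 and 373 CPM among MO/MP-like cells, and the part of either set of markers in the values below was not tested.

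The 10 genes together made up the largest share of RNA in the Fcna cluster, at 2245 CPM (2149–2345) in Ctrl and 4705 CPM (4553–4861) in dKO. EC-like cells followed in Ctrl at 1792 CPM (1741–1843), and MO/MP-like cells followed in dKO at 2309 CPM (2276–2343). B cell-like cells were lowest in both libraries, at 118 CPM (85.3–159) in Ctrl and 248 CPM (191–316) in dKO, and MuSC-like cells of Ctrl were next to them at 122 CPM (108–137), an interval that overlapped that of the B cell-like cells. FAP-like cells stood in the lower part of the order in Ctrl, at 439 CPM (428–449.9), and at 1130.1 CPM (1113–1147) in dKO. Of the 12 pairs of neighbours in the order of the 13 classes, 6 in Ctrl and 5 in dKO had overlapping intervals, which does not show that they are equal. Counted as molecules, MO/MP-like cells held 39% and 39.2% of all UMIs of these genes in Ctrl and dKO. FAP-like cells held 21.5% and 37.4%, and EC-like cells 16% and 3.24%. These shares also follow the number of cells, which for EC-like cells was 466 in Ctrl and 179 in dKO.

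**Figure D1:**
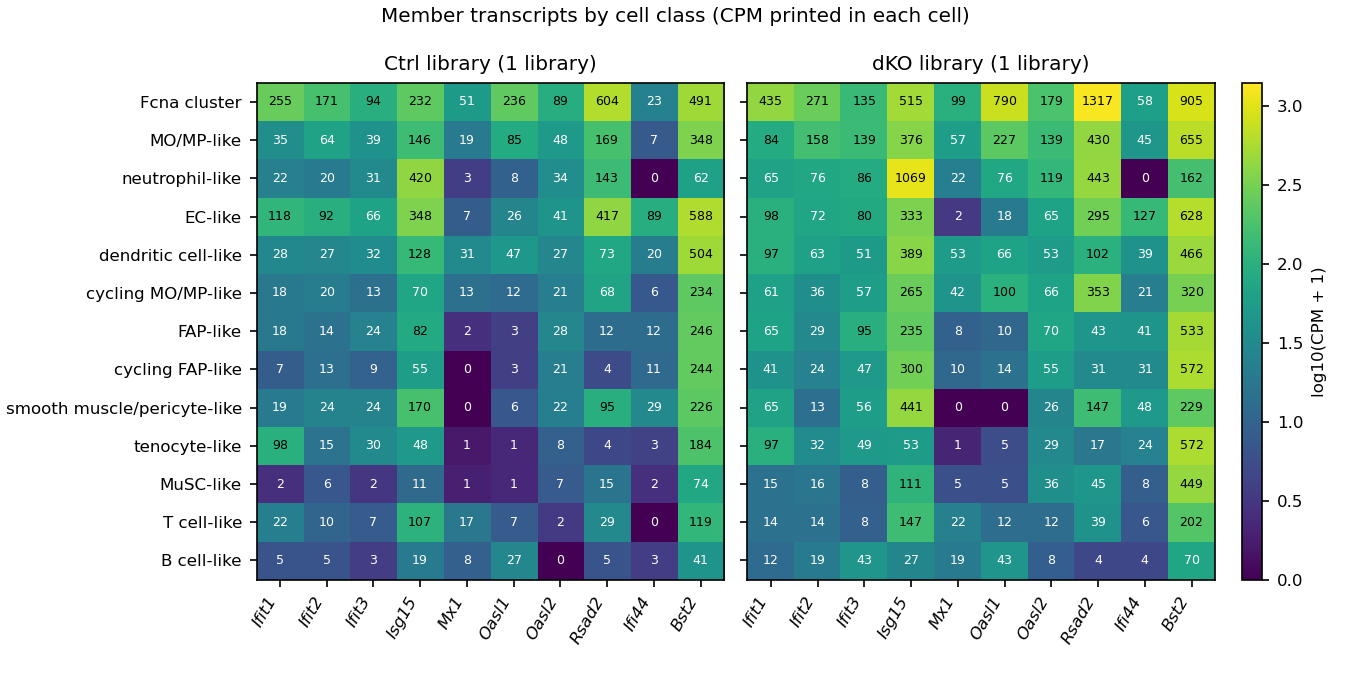
Heat map of the level of each gene (columns) in each of the 13 cell classes (rows) in Ctrl and dKO, coloured by log10(CPM + 1) with the CPM of summed UMIs printed in each box. The Fcna cluster has the highest level of Rsad2, 604 CPM in Ctrl and 1317 CPM in dKO, and the MuSC-like and B cell-like cells of Ctrl are dark, which marks a low level, for most genes.

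Among the IFIT genes, which encode RNA-binding proteins with tetratricopeptide repeats, Ifit1 was highest in the Fcna cluster, at 255 CPM (224–290.4) in Ctrl and 435 CPM (389.5–484) in dKO. Its intervals did not overlap those of any other class in either library. EC-like cells had 118 CPM (105–132) in Ctrl and 97.5 CPM (77.9–121) in dKO, which overlapped tenocyte-like cells in both libraries and dendritic cell-like cells in dKO. Without the highest cell of each class and library, EC-like cells had 84.0 CPM in Ctrl and 86.6 CPM in dKO. Tenocyte-like cells then had 32.1 and 79.6 CPM, and dendritic cell-like cells of dKO 29.3 CPM. MuSC-like cells of Ctrl had 4 UMIs of Ifit1, 1.73 CPM (0.472–4.43). Ifit2, whose protein binds AU-rich RNA, was also highest in the Fcna cluster, at 171 CPM (145–199.7) in Ctrl and 271 CPM (236–311) in dKO, with MO/MP-like cells at 64.5 CPM (60–69.1) in Ctrl and 158 CPM (149–167) in dKO. FAP-like cells had 13.9 CPM (12.1–15.9) in Ctrl and 29.4 CPM (26.7–32.2) in dKO. The FAP-like values of Ifit2 did not overlap between libraries, and the dKO value stayed below the Ctrl value of the MO/MP-like cells. Ifit3, which forms complexes with the other IFIT proteins, differed from them in its order. In Ctrl the Fcna cluster at 93.5 CPM (74.7–116) and EC-like cells at 65.8 CPM (56.4–76.3) had overlapping intervals, and without the highest cells they had 48.1 and 57.4 CPM, so the order turned. In dKO MO/MP-like cells at 139 CPM (131–147) and the Fcna cluster at 135 CPM (110.3–164) had overlapping intervals. FAP-like cells had 23.7 CPM (21.3–26.3) in Ctrl and 94.6 CPM (89.8–99.6) in dKO. FAP-like cells were thus next below the Fcna cluster in the order of dKO, and they held 49.1% of the Ifit3 UMIs of dKO against 27.5% in Ctrl. The dKO share was close to their part of all UMIs of that library.

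Isg15 was led by neutrophil-like cells, at 420.1 CPM (356–493) in Ctrl and 1069 CPM (869–1302) in dKO, although this class had only 99 and 36 cells. EC-like cells came next in Ctrl with 348 CPM (326–371), which overlapped them, and the Fcna cluster in dKO with 515 CPM (466–569). In FAP-like cells Isg15 had 82 CPM (77.4–86.8) in Ctrl and 235 CPM (227–243) in dKO. MO/MP-like cells had 146 CPM (139–153) in Ctrl and 376 CPM (363–389.8) in dKO. The lowest level in Ctrl was that of MuSC-like cells, 11.3 CPM (7.35–16.5), which had 111 CPM (86.7–141) in dKO, so the intervals of these 2 values were far apart.

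Mx1 was led by the Fcna cluster, at 50.6 CPM (37.1–67.5) in Ctrl and 98.6 CPM (77.7–123) in dKO, followed by dendritic cell-like cells in Ctrl at 31.4 CPM (21.4–44.6) and by MO/MP-like cells in dKO at 57.3 CPM (52.1–62.8). FAP-like cells had 25 UMIs in Ctrl and 129 in dKO, which gave 1.7 CPM (1.1–2.51) in Ctrl and 8.43 CPM (7.04–10) in dKO. It had 0 UMIs in smooth muscle/pericyte-like cells of both libraries, and all 12 pairs of neighbours in Ctrl and 11 of 12 in dKO had overlapping intervals. The MO/MP-like share of all Mx1 UMIs was 57.4% in Ctrl and 58.6% in dKO.

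The OAS-like genes, neighbours on chromosome 5, differed in where they were found. Oasl1, which encodes a protein that restrains translation of Irf7, was concentrated in the Fcna cluster at 236 CPM (205–269) in Ctrl and 790.5 CPM (729–856) in dKO and in MO/MP-like cells at 85 CPM (79.9–90.4) in Ctrl and 227 CPM (217–238) in dKO. This class accounted for 69.9% and 65.3% of all Oasl1 UMIs. In FAP-like cells it reached 3.0 CPM (2.18–4.02) in Ctrl and 10.1 CPM (8.54–11.8) in dKO, and 3 classes of dKO had no cell with an Oasl1 UMI after thinning. Oasl2 was found in stromal classes as well. FAP-like cells had 27.5 CPM (24.9–30.3) in Ctrl and 70.1 CPM (66–74.4) in dKO, and MO/MP-like cells had 48.4 CPM (44.6–52.5) in Ctrl and 139 CPM (131–147) in dKO. The dKO level in FAP-like cells was thus within 2-fold of that in MO/MP-like cells for Oasl2, whereas for Oasl1 it was 10.1 against 227 CPM.

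By its summed level, Rsad2 separated the Fcna cluster from the rest. The Fcna cluster had 604 CPM (555–657) in Ctrl and 1317 CPM (1238–1401) in dKO, and its intervals lay above those of every other class. EC-like cells of Ctrl had 417 CPM (393–442) and those of dKO 295 CPM (259.9–333). MO/MP-like cells had 169 CPM (162–177) in Ctrl and 429.7 CPM (415–444) in dKO. FAP-like cells had 11.9 CPM (10.2–13.7) in Ctrl and 43.5 CPM (40.2–46.9) in dKO, far below the MO/MP-like cells of the same library. Ifi44, a cytoplasmic protein whose biochemical role is not settled, was highest in EC-like cells, at 89 CPM (78–101) in Ctrl and 127 CPM (105–153) in dKO, an order that no other member showed in both libraries. FAP-like cells held 49.4% of its UMIs in dKO, close to their part of all UMIs of that library. They had 11.9 CPM (10.2–13.8) in Ctrl and 41.3 CPM (38.1–44.6) in dKO. Neutrophil-like cells, the leading class for Isg15, had 0 Ifi44 UMIs in either library.

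Bst2 contributed the most UMIs of the members and was found in every class. EC-like cells had 588 CPM (559–618) in Ctrl and 628 CPM (576–682) in dKO, MO/MP-like cells 348 CPM (338–359) in Ctrl and 655 CPM (637–673) in dKO and FAP-like cells 246 CPM (238–254) in Ctrl and 533 CPM (521–544) in dKO. It made up 56% of the members' UMIs in FAP-like cells of Ctrl and 47.1% of dKO, so the sum over members follows Bst2 more closely there than in MO/MP-like cells. In MuSC-like cells Bst2 made up a larger part, 61.2% in Ctrl and 64.4% in dKO. Its share among MO/MP-like cells was 36.2% and 28.4%. Dendritic cell-like cells had overlapping intervals, 504 CPM (460.5–550.1) in Ctrl and 466 CPM (422–513) in dKO. B cell-like cells were lowest at 41.1 CPM (23–67.8) in Ctrl and 69.6 CPM (41.3–110.0) in dKO.

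Between the libraries, FAP-like cells had all 10 members at 2-fold or more above Ctrl in dKO, and 9 without the highest cell of each library, where Ifit2 had 1.86 (1.57–2.22). Of all 10243 genes with at least 100 UMIs in this class 0.742% reached a ratio of 2. The members had been picked for such values, so nothing is read from that contrast. The ratio was highest for Mx1, 4.95 (3.21–7.94), which rested on few UMIs in Ctrl, and then for Ifit3, 3.99 (3.55–4.5), Ifit1, 3.67 (3.2–4.23), and Rsad2, 3.67 (3.1–4.36). It was lowest for Ifit2, 2.11 (1.79–2.51), and Bst2, 2.17 (2.08–2.25). The median log2 ratio of the members was 1.77, beside -0.06 over all genes. The members therefore differed among themselves by more than their counting intervals, and the most abundant and most widely spread of them, Bst2, had one of the smallest ratios.

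In MO/MP-like cells 9 of 10 members were at 2-fold or more, and 1.36% of 8486 genes were. Bst2 was the exception at 1.88 (1.81–1.96). Ifi44 had the highest ratio, 6.68 (5.24–8.6), from a level of 6.74 CPM in Ctrl to 45 in dKO, and Ifit3 followed at 3.6 (3.22–4.01). The other members lay between 2.39 and 3.0. The median log2 ratio was 1.39, beside 0.00 over all genes. Ifit3 thus stood high in both main classes, whereas Ifi44 had 3.46 in FAP-like and 6.68 in MO/MP-like cells. The summed ratio was 2.57 (2.5–2.65) in FAP-like cells, 2.4 (2.35–2.46) in MO/MP-like cells and 2.1 (1.98–2.21) in the Fcna cluster, where all 10 members had intervals above 1, as did 14.7% of 2462 genes, and 4 of 9 with at least 100 UMIs reached 2-fold, beside 1.5% of those genes. A single Ctrl cell held 42 of the 85 Ifit3 UMIs of that cluster, and without the highest cell of each library its Ifit3 ratio was 2.78 (1.93–4.07) against 1.44 (1.07–1.95), and 6 of 9 members reached 2-fold. Over all kept cells the summed ratio was 2.07 (2.04–2.1), a value that also follows the different mixture of classes in each library.

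**Figure D2:**
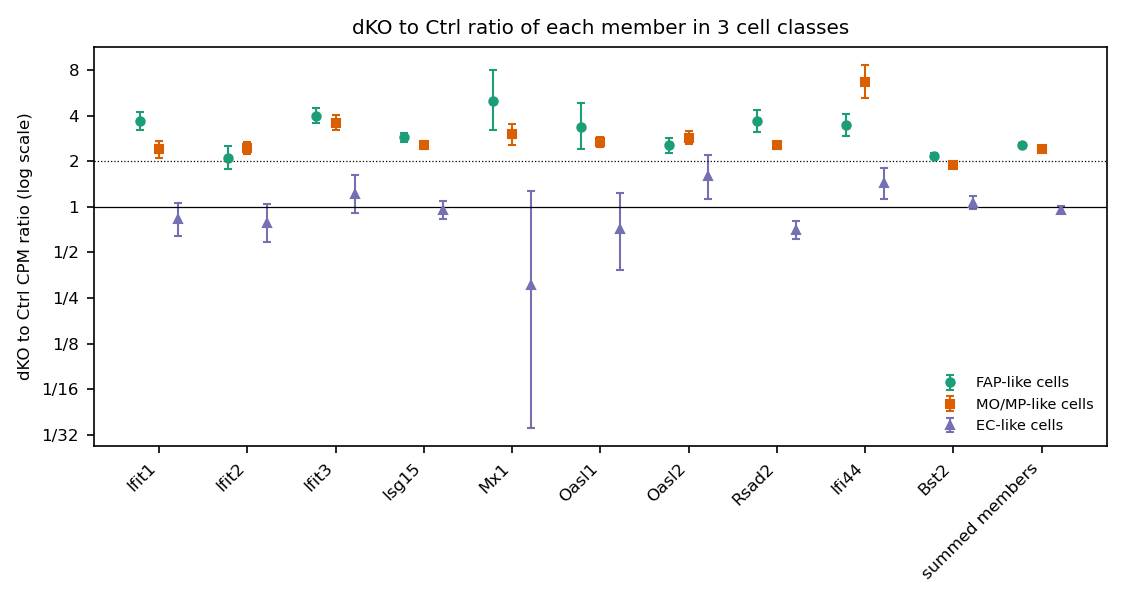
Ratio of dKO to Ctrl CPM (y axis, log scale) for each member and their sum in FAP-like, MO/MP-like and EC-like cells, with bars for the exact 95% interval of counting error, a solid line at 1 and a dotted line at 2. FAP-like and MO/MP-like points lie above 1 for all 10 members, from 1.88 to 6.68, while EC-like points lie on both sides, from 0.307 to 1.59.

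With the processing used here, EC-like cells had no such difference in the sum of the members. Their summed level was 1792 CPM (1741–1843) in Ctrl and 1719 CPM (1633–1808) in dKO, a ratio of 0.959 (0.905–1.02). That ratio was above 1, and above this interval, with no doublets removed and with all variable genes in the clustering, as given below. None of the 8 members with at least 100 UMIs reached 2-fold, and 0.589% of 4753 genes did. Rsad2 was lower in dKO, 0.707 (0.615–0.811), and it was the only pair of the 130 members and classes whose interval lay below 1, while 82 lay above 1 and 47 covered it. Of the 58 pairs with at least 100 UMIs, 46 lay above 1 and 1 below, and of 47226 such pairs over all genes 15.2% lay above and 15.9% below. Without the highest cell of each class and library, 75 lay above 1 and 2 below, the second being Rsad2 in smooth muscle/pericyte-like cells at 0.316 (0.112–0.724). Oasl2 at 1.59 (1.13–2.21) and Ifi44 at 1.43 (1.13–1.8) were the members with intervals above 1. A single Ctrl cell held 656 of the 4793 member UMIs of the class, 236 of them Rsad2. It also held 17 UMIs of Lyve1 and 1 of Prox1, which mark lymphatic endothelium, and 0 of the blood endothelial genes Flt1 and Gpihbp1. Without that cell and the highest dKO cell, the summed ratio was 1.06 (0.998–1.13) and that of Rsad2 0.837 (0.723–0.967). With no doublets removed, the log2 ratio of Rsad2 was 0.06, against -0.50 here. The EC-like clusters were led by Gpihbp1, Selp and Cytl1, and their summed ratios were 1.1 (1.02–1.19), 1.11 (0.993–1.24) and 0.93 (0.776–1.11). Each of these was closer to 1 than any FAP-like or MO/MP-like cluster.

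MuSC-like cells, in which Yy1 was deleted, were among the 3 lowest classes for the summed members in both libraries, at 122 CPM (108–137) in Ctrl and 698 CPM (634–767) in dKO. Their ratio, 5.74 (4.93–6.69), was higher than that of the other classes, but it came from 281 UMIs in 117 cells and 432 UMIs in 30 cells. Bst2 was most of it, with 172 and 278 UMIs, a ratio of 6.03 (4.97–7.34), and Isg15 had 26 and 69. A single dKO cell held 116 of the 432 UMIs, and without the highest cell of each library the ratio was 4.96 (4.19–5.87). The remaining IFIT, OAS-like and Mx1 counts were small. In dKO, Mx1 and Oasl1 had 3 UMIs each. Markers of macrophages summed to 140.2 and 32.3 CPM in this class, with 1 and 6 of 14 at 0, and FAP markers to 934 and 462 CPM, both lower in dKO. The part of RNA from other cells in this result was not tested.

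The smaller classes gave ratios that depended more on single cells. Neutrophil-like cells had a summed ratio of 2.85 (2.36–3.44), cycling FAP-like cells 3.05 (2.76–3.38), cycling MO/MP-like cells 2.78 (2.52–3.06) and tenocyte-like cells 2.24 (2.01–2.49). Dendritic cell-like cells at 1.5 (1.38–1.64) and T cell-like cells at 1.48 (1.19–1.85) had lower ratios, and in T cell-like cells 9 of the 10 members had intervals that covered 1. Counts there were low. Only 2 members had at least 100 UMIs, and 1 of these had an interval above 1, beside 13.0% of 1220 genes. In smooth muscle/pericyte-like cells the ratio was 1.66 (1.42–1.94), with 51.9% of the dKO UMIs in 1 cell, and 0.915 (0.738–1.13) without the highest cell of each library. For B cell-like cells the ratio moved from 2.1 (1.41–3.17) to 1.46 (0.919–2.31). In tenocyte-like cells 1 Ctrl cell held 105 of the 155 Ifit1 UMIs, where the Ifit1 levels were 98.5 in Ctrl and 97 CPM in dKO. Without the highest cell of each library these were 32.1 CPM in Ctrl and 79.6 CPM in dKO, a ratio of 2.48 (1.7–3.64) against 0.986 with them. Bst2 had 184 CPM (164–207) in Ctrl and 572 CPM (523–624) in dKO. Summed over members, 12 of the 13 classes had an interval above 1, and without the highest cell of each library those of B cell-like and smooth muscle/pericyte-like cells covered 1.

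The distribution over cells was then examined, with each cell thinned to 2000 UMIs so that depth was equal. Cells with fewer than 2000 UMIs were left out, so the shares cover the deeper cells. These were 63 and 54 FAP-like, 45 and 49 MO/MP-like, 67 and 36 EC-like and 44 and 20 neutrophil-like cells and 100 and 65 of the Fcna cluster in Ctrl and dKO. A cell was counted for a member if it held at least 1 UMI of it. In FAP-like cells the mean number of members per cell was 0.558 in Ctrl and 1.23 in dKO, and 58.4% and 30.9% of cells held none. Among MO/MP-like cells the means were 1.15 and 2.35, with 37.5% and 13.7% of cells at none. The Fcna cluster had means of 1.74 and 3.2. EC-like cells had 1.72 and 1.94 members. Most MuSC-like cells of Ctrl, 84.8%, and 50% of those of dKO held none, and B cell-like cells had 83.7% and 78.9%.

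Cells with 5 or more of the 10 members were a minority in every class. They were 5 of 1027 cells (0.487%, 0.158–1.13) in Ctrl and 32 of 1093 cells (2.93%, 2.01–4.11) in dKO among FAP-like cells. Among MO/MP-like cells they were 41 of 1117 cells (3.67%, 2.65–4.95) in Ctrl and 127 of 883 cells (14.4%, 12.1–16.9) in dKO. In the Fcna cluster they were 15 of 157 cells (9.55%, 5.45–15.3) in Ctrl and 36 of 133 cells (27.1%, 19.7–35.5) in dKO. These intervals, too, cover counting error only. Those of the libraries did not overlap in these 3 classes, and the share in dKO was highest in the Fcna cluster. EC-like cells had 24 of 399 cells (6.02%, 3.89–8.82) in Ctrl and 14 of 143 cells (9.79%, 5.46–15.9) in dKO, which overlapped. No MuSC-like cell of the 112 in Ctrl or the 30 in dKO reached 5 members, and such counts of 0 allow shares of up to 3 cells of these totals, 2.68% and 10%, and the exact binomial intervals reach 3.24% and 11.6%. At the threshold itself, 8 Ctrl and 27 dKO FAP-like cells held 4 members and 3 and 18 held 5. Among MO/MP-like cells 27 and 88 held 4 and 22 and 63 held 5, so there was no gap at the threshold. Whether the cells above it form a separate group was not tested.

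MO/MP-like cells of dKO thus had both more cells with any member and more cells with many. Cells with 5 or more members held 22.7% of the members' UMIs of the class in Ctrl and 43.4% in dKO. In FAP-like cells they held 6.94% and 18.7%, so most member UMIs of FAP-like cells were in cells with fewer members. In the Fcna cluster the shares were 46.7% and 55.3%, and in EC-like cells 37.2% and 30.8%.

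**Figure D3:**
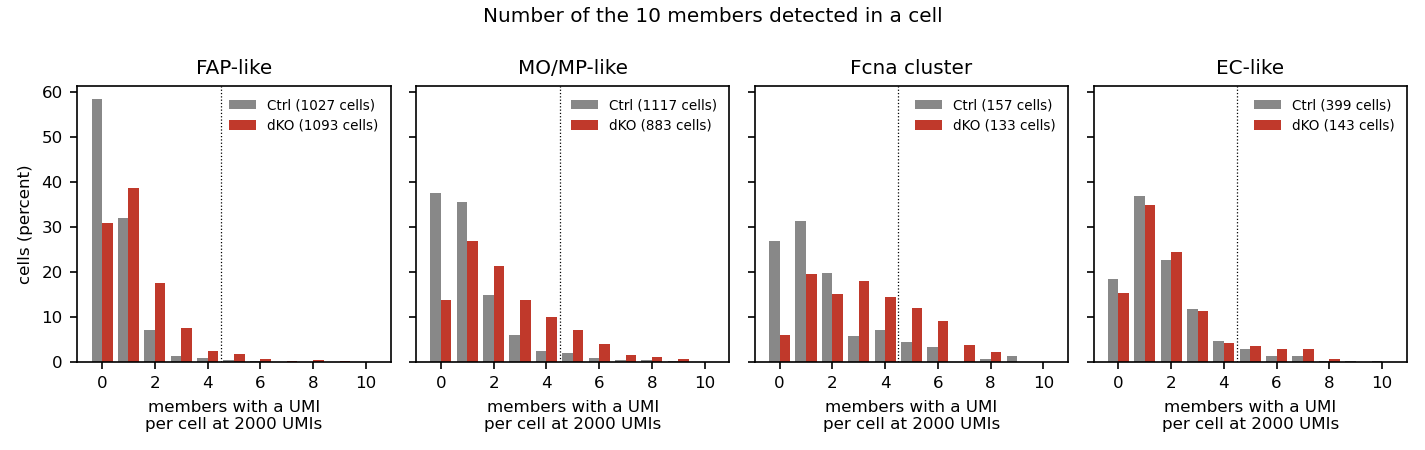
Percent of cells (y axis) by the number of the 10 members with at least 1 UMI after thinning to 2000 UMIs (x axis), in Ctrl and dKO for 4 cell classes, with a dotted line below the threshold of 5. In FAP-like cells the bar at none is 58.4% in Ctrl and 30.9% in dKO, and in MO/MP-like cells 37.5% and 13.7%, with a longer right tail in dKO.

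The members fell into widely and narrowly spread genes. Bst2 was the most widely spread, found in 29.7% and 55.4% of thinned FAP-like cells (73.1% and 86.4% unthinned). The fewest cells that together held 50% of its UMIs were 123 (11.3%) in Ctrl and 171 (14.9%) in dKO. As a background level, the lowest share of any class was 6.12% and 7.04% for Bst2, in B cell-like cells with medians of 2328 and 2556 UMIs per cell. Rsad2, by contrast, was found in 1.75% and 4.85% of thinned FAP-like cells (6.42% and 16% unthinned), and 50% of its UMIs were in 9 (0.826%) and 11 (0.959%) cells. Its share was 0 of 98 B cell-like cells in Ctrl and 1.41% in dKO, so neither thinned FAP-like share was clear of the counting error of that background. Rsad2 was found in more MO/MP-like cells, 15.3% and 30.1% (29.9% and 49.1% unthinned), with 50% of UMIs in 35 (3.01%) and 43 (4.61%) cells. Median depths before thinning were 11748 and 11872 UMIs in FAP-like cells and 9014 and 7450.5 in MO/MP-like cells.

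The spread over cells varied among the other members. In MO/MP-like cells Oasl2 was shared by many cells, with 50% of its UMIs in 75 (6.45%) and 126 (13.5%) cells, whereas Ifit1 was held by few, with 50% in 12 (1.03%) and 27 (2.9%). Isg15 was found in 17.9% and 34.9% of thinned MO/MP-like cells and in 8.28% and 22% of FAP-like cells. Its lowest shares were 2.68% in MuSC-like cells of Ctrl, median 11248 UMIs, and 5.06% in tenocyte-like cells of dKO, median 9888. Ifit2 moved the other way from most members in FAP-like cells, where 50% of its UMIs were in 52 (4.77%) cells in Ctrl and in 22 (1.92%) in dKO. A single dKO cell held 59 of the 449 Ifit2 UMIs. Mx1, with far fewer UMIs, had 8 (0.734%) and 7 (0.61%) such cells. Thinned shares of Ifit2 were 2.82% and 3.29%, beside the lowest of any class, 0.893% in MuSC-like cells of Ctrl and 2.5% in cycling FAP-like cells of dKO.

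**Figure D4:**
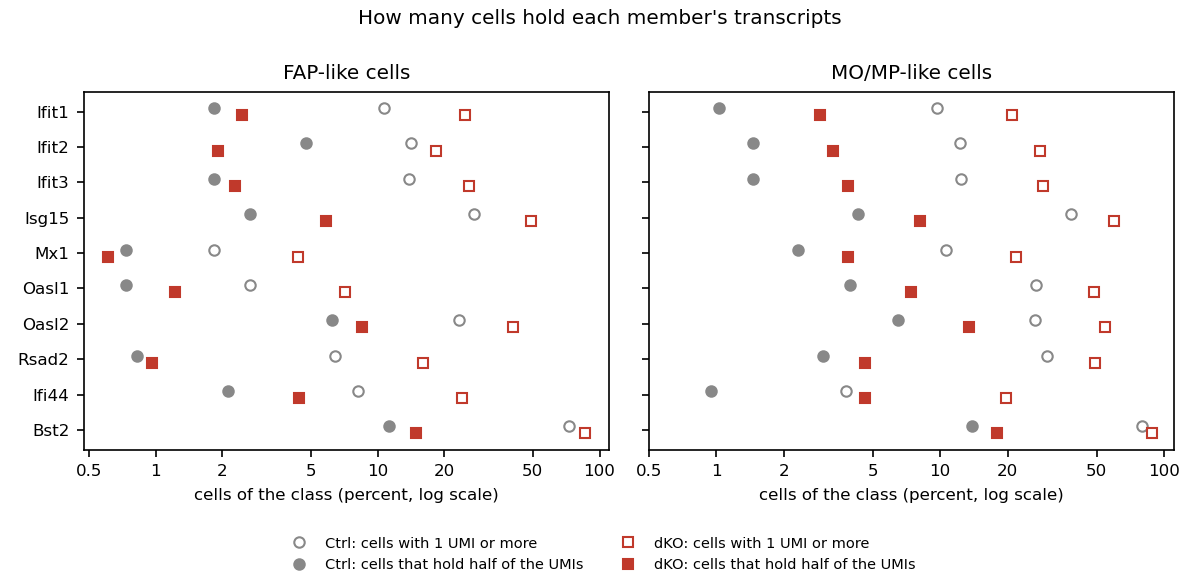
Percent of FAP-like and MO/MP-like cells (log axis) with at least 1 UMI of each member (open symbols, unthinned) and the smallest percent of cells that holds 50% of its UMIs (filled symbols), for Ctrl and dKO. For Rsad2 in FAP-like cells of dKO the open symbol is at 16% and the filled one at 0.959%, and for Bst2 they are at 86.4% and 14.9%.

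Unevenness between cells was also given by a variance that allows for depth. It is the variance of Pearson residuals from an expected count set by cell depth, near 1 for a gene spread evenly, and a gene with 2 or more was counted as over-dispersed. In FAP-like cells 6 of the 8 members with at least 100 UMIs reached it in Ctrl and 10 of 10 in dKO, where 12.7% and 14.0% of all genes did. Among MO/MP-like cells 8 of 9 in Ctrl and 9 of 10 in dKO did, beside 12.5% and 13.1%. Mx1 and Oasl1 in FAP-like cells and Ifi44 in MO/MP-like cells had 100 UMIs only in dKO, for which the members were chosen. Their Ctrl variances were 1.85, 2.07 and 2.45, so the counts of the 2 libraries cover different members and are not compared. In EC-like cells 6 of 8 and 3 of 4 did, beside 13.6% and 29.7%. Rsad2 was the highest member in MO/MP-like cells, with 16.1, rank 51 of 7382 genes in Ctrl and 20.9, rank 28 of 6333 in dKO. Ifit3 led in FAP-like cells of dKO, with 12.3, rank 119 of 8770, followed by Isg15 with 11.6, rank 126 of 8770. Oasl2 was the most even member among MO/MP-like cells, at 2.0, just under the threshold, in Ctrl and 1.64 in dKO, and it had 1.64 in FAP-like cells of Ctrl. Ifit2 had 1.55 in FAP-like cells of Ctrl and 5.27 in dKO.

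All 4 FAP-like and all 4 MO/MP-like clusters had ratios well above 1. The FAP-like cluster led by Eln had 447 CPM in Ctrl and 1291 CPM in dKO, a ratio of 2.89 (2.77–3.03), and that led by Inmt 289 CPM in Ctrl and 961 CPM in dKO, a ratio of 3.33 (3.07–3.61). Those led by Cxcl5 and Cxcl13 had ratios of 2.3 (2.19–2.41) and 1.98 (1.8–2.18). The cluster with the lowest Ctrl level, Inmt, thus had the highest ratio. Cells with 5 or more members were 2 of 452 cells (0.442%) in Ctrl and 17 of 366 cells (4.64%) in dKO for Eln, 0 of 243 cells in Ctrl and 6 of 317 cells (1.89%) in dKO for Inmt, 3 of 205 cells (1.46%) in Ctrl and 7 of 256 cells (2.73%) in dKO for Cxcl5 and 0 of 127 cells in Ctrl and 2 of 154 cells (1.3%) in dKO for Cxcl13. Among MO/MP-like clusters the one led by Apoe was highest in both libraries, with 1242 CPM in Ctrl and 2926 CPM in dKO, a ratio of 2.36 (2.26–2.45), and 22 of 336 cells (6.55%) in Ctrl and 47 of 231 cells (20.3%) in dKO held 5 or more members. The clusters led by Spp1, Slpi and Dcstamp had ratios of 2.57 (2.47–2.67), 2.56 (2.42–2.7) and 2.18 (2.03–2.34). Of the dendritic cell-like clusters, the one led by Cd209a had 1281 CPM in Ctrl and 1880.1 CPM in dKO, a ratio of 1.47 (1.33–1.62), and the one led by Xcr1 429 CPM in Ctrl and 555 CPM in dKO, a ratio of 1.29 (1.05–1.59).

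Cells that held Ifit3 also held each other member more often than cells without it, except for Ifit2 in FAP-like cells of Ctrl and Oasl1 in EC-like cells of dKO. Cells with an Ifit3 UMI after thinning were 30 and 97 among FAP-like, 49 and 139 among MO/MP-like and 32 and 16 among EC-like cells of Ctrl and dKO. In FAP-like cells of dKO, Isg15 was present in 57.7% of cells with Ifit3 and in 18.6% of cells without it, Ifit1 in 34% and 5.92%, and Rsad2 in 17.5% and 3.61%. In MO/MP-like cells of Ctrl, Ifit2 was present in 44.9% and 4.68%, and in dKO in 47.5% and 9.68%. In EC-like cells of Ctrl, Rsad2 was present in 65.6% and 24%. All 9 other members were more frequent in Ifit3 cells of dKO FAP-like cells and of MO/MP-like cells in both libraries, with exact 95% intervals apart for 9, 8 and 9 of the 9. In FAP-like cells of Ctrl they were apart for 5, and in EC-like cells for 7 in Ctrl and 3 in dKO. Of all genes with at least 100 UMIs in the class and library, such intervals were apart for 0.852% and 1.3% in FAP-like, 1.95% and 2.35% in MO/MP-like and 1.26% and 0.563% in EC-like cells of Ctrl and dKO. Of the members with that many UMIs, they were apart for 5 of 7 and 9 of 9, 8 of 8 and 9 of 9, and 5 of 7 and 1 of 4. The exception in FAP-like cells of Ctrl was Ifit2, found in 0 of 30 Ifit3 cells. Among MO/MP-like cells, by contrast, Ifit2 and Ifit3 had the highest correlation of log counts of any pair, 0.43 in Ctrl and 0.47 in dKO, as a description over cells that share library and depth.

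Cells with 5 or more members were compared with the others of their class for genes outside the list, in summed CPM for 0 or 1, for 2 to 4 and for 5 or more members. Cxcl10, a chemokine for T cells, was 38.6, 69.5 and 988 CPM in MO/MP-like cells of Ctrl and 26.5, 117 and 693 CPM in dKO. In FAP-like cells of dKO it was 209.6, 437 and 2234 CPM. Cxcl10 was thus highest in the cells with 5 or more members in both classes. The guanylate-binding and immunity-related GTPases, induced mainly by interferon gamma, summed to 302, 772 and 3250.0 CPM in FAP-like cells of dKO and to 183, 356 and 1043 CPM in MO/MP-like cells of dKO. MHC class I genes, which present antigen, were graded less steeply, with 7436, 8804 and 9646 CPM in the same MO/MP-like cells. The macrophage markers summed to 209, 220.0 and 297 CPM in these FAP-like groups, and the FAP markers to 45828, 39468 and 42203 CPM.

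Ligands of the pathway were scarce. Of 10 interferon genes looked for, Ifnb1, the type I ligand made early in a response, had 17 UMIs in 10 Ctrl cells and 19 UMIs in 8 dKO cells, and Ifng had 195 and 144 UMIs. Ifnk had 1 UMI in Ctrl, and the Ifna, Ifne and Ifnl genes looked for had none. The Ctrl cells with Ifnb1 were 5 of the Fcna cluster, 4 MO/MP-like and 1 lymphatic EC-like cell. Those of dKO were 5 MO/MP-like cells, 2 of the Fcna cluster and 1 dendritic cell-like cell, which held 8 of the 19 UMIs. Ifng was found mostly in T cell-like cells, which held 171 of the 195 UMIs in Ctrl and 136 of 144 in dKO.

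Receptor chains and kinases were compared in FAP-like and MO/MP-like cells. Of the 8 genes listed, 7 had at least 100 UMIs in each of these classes and none reached 2-fold, and Ifnlr1, a type III receptor chain, had 5 UMIs in Ctrl and 2 in dKO over all kept cells. The type I chains Ifnar1 and Ifnar2 had ratios of 0.862 (0.766–0.97) and 1.06 (0.996–1.13) in FAP-like cells and 1.03 (0.938–1.13) and 1.14 (1.08–1.2) in MO/MP-like cells. The type II chains Ifngr1 and Ifngr2 had 0.908 and 0.90 in FAP-like cells and 1.04 and 1.3 in MO/MP-like cells. Among the kinases, Jak1 had 1.07 and 1.08, Jak2 1.11 and 1.29, and Tyk2 0.795 and 1.23 in these classes. In EC-like cells Jak2 had 1.57 (1.33–1.86). The list median log2 ratio was -0.14 in FAP-like, 0.19 in MO/MP-like and -0.03 in EC-like cells, beside -0.06, 0.00 and -0.03 over all genes.

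Among the transcription factors of the pathway, Irf7, which amplifies type I responses, had 31.6 CPM in Ctrl and 112 CPM in dKO FAP-like cells, a ratio of 3.56 (3.21–3.95). Its MO/MP-like levels were 94.8 and 363 CPM, 3.83 (3.57–4.1), and in EC-like cells the ratio was 1.67 (1.31–2.11). Irf7 was over 2-fold in FAP-like cells, and so was Stat2 among MO/MP-like cells at 2.67 (2.32–3.06). Stat2 had 1.8 (1.6–2.03) in FAP-like and 0.708 (0.517–0.956) in EC-like cells. Irf9, a partner of Stat2, had 1.54 and 1.52 in FAP-like and MO/MP-like cells. Irf1, which is itself induced by interferon, had 1.01 and 1.69. Irf3, which is activated by nucleic acid sensing and is not itself induced by interferon, had 0.853 and 0.897, Irf8 1.22 and 1.04, and Irf5 0.88 and 1.15.

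Negative regulators were higher along with the members in some classes. Usp18, the protease that removes Isg15 from proteins and that restrains Ifnar2, had 2.73 (2.27–3.29) in FAP-like and 2.9 (2.39–3.54) in MO/MP-like cells. Socs3, an inhibitor of cytokine signalling, had 1.13 (1.09–1.18) and 2.26 (2.07–2.46), and Socs1 1.12 (1.01–1.24) and 1.76 (1.29–2.42). Of the 3 that could be compared in FAP-like cells 1 reached 2-fold, and of the 4 in MO/MP-like cells 2 did, beside 0.742% and 1.36% of all genes.

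The list of 50 other interferon effectors, like every list here, was chosen with earlier results of these data known, so its counts are descriptions. Of these 50, 43 could be compared in FAP-like cells, where all 43 were higher in dKO and 13 reached 2-fold, beside 39.1% and 0.742% of all genes. Among MO/MP-like cells all 50 were higher and 30 reached 2-fold, beside 50.1% and 1.36%. In EC-like cells 26 of 34 were higher, beside 46.1% of all genes, none reached 2-fold and 1 was lower by that much. Of all 4753 genes of that class, 28 (0.589%) reached 2-fold and 65 were lower by that much. Median log2 ratios were 0.76, 1.04 and 0.28, beside -0.06, 0.00 and -0.03 over all genes. Ifi27l2a, a small membrane protein of the same response, had 420.0 and 1401 CPM in FAP-like cells, 3.34 (3.24–3.43). Ifitm3, which blocks fusion of viruses in endosomes, had 1.5 (1.47–1.52) in FAP-like and 2.02 (1.97–2.07) in MO/MP-like cells. Ifi207, Slfn5 and Shisa5, the next by UMIs, had 1.45, 1.11 and 1.08 in FAP-like and 1.54, 2.04 and 1.19 in MO/MP-like cells. The interferon gamma GTPases reached 2-fold for 7 of 11 in FAP-like, 8 of 12 in MO/MP-like and 0 of 12 in EC-like cells, with median log2 ratios of 1.16, 1.22 and 0.43. MHC class I genes reached it for 0, 1 and 0 of 7, with medians of 0.73, 0.58 and 0.30. Cxcl9, a chemokine induced by interferon gamma, had 5.51 and 54.7 CPM in MO/MP-like cells, 9.93 (7.66–13), and 2.39 (2.22–2.58) in FAP-like cells.

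The genes whose pattern was most like the members' summed level, by the Pearson correlation of log2(CPM + 1) over 26 points (13 classes in 2 libraries) among 12548 genes, were Irf7 (0.93), Rtp4 (0.90), Usp18 (0.85), Trafd1 (0.85), Rnf213 (0.82), Dhx58 (0.80), Ifih1 (0.80), Sppl2a (0.79), Slc31a2 (0.79) and Il18bp (0.79). Of these, Dhx58 and Ifih1 are RNA helicases of the sensing pathway. The points share libraries, so the values are descriptions. The log counts most correlated with the number of members per cell, over 2120 thinned FAP-like cells of both libraries, were those of Iigp1 (0.40), Ifi27l2a (0.34), Cxcl9 (0.31), Ly6e (0.30) and Irf7 (0.30). Over 2000 MO/MP-like cells they were those of Irf7 (0.40), Slfn5 (0.40), Ifi211 (0.38), Ifi204 (0.38) and Ifi209 (0.38), and Irf7 was on all 3 lists. Each list pooled Ctrl and dKO, and the members were chosen for higher levels in dKO. A gene higher in dKO, as Irf7 was, can gain correlation from that alone, so the lists are not independent of the choice. No correlation within 1 library is given here.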

How the data were processed

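Single-cell RNA of hind limb mononuclear cells was captured on the 10x Chromium and 1 library per genotype was sequenced. The deposited values were raw counts of UMIs per gene and barcode, which the authors made with Cell Ranger on mm10. The submitters' processing notes name version 7.0.0 and the file header names 3.0.2, and which of them made the counts is not settled here. Libraries held 45556596 UMIs in 4527 Ctrl barcodes and 33815155 in 3483 dKO barcodes, and 7 barcodes occurred in both. Cells with at least 500 genes were 4335 and 3329. The study gives the same numbers for the cells left after its own filters and doublet removal, so the cells kept here, after a further removal, are a smaller set. No mitochondrial gene was among the 24984.

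The 7.5% of cells ranking highest in Scrublet (scanpy 1.11.5) were removed, 325 and 249, since its own threshold marked 4 and 14. The rank was tied at the limit for 52 and 28 cells, of which 33 and 9 were removed. Counts were log-normalized, integrated and clustered with Seurat 5.3.0 in R 4.3.3 (2000 variable genes, 40 dimensions, resolution 0.8), leaving 127 interferon-related genes out. The 25 clusters were named from 18 marker lists with 154 genes, at least 3 enriched. The Fcna cluster had 12 of 14 MO/MP markers enriched, but its 10 leading genes held 1 marker of lymphatic ECs, Lyve1, and none of MO/MP. The naming rule therefore left it unnamed. Without integration, the cluster led by Fcna and Cd163 was named MO/MP-like by the same rule. Perineurial-like and lymphatic EC-like clusters had fewer than 30 cells in a library and enter no comparison of classes.

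UMIs were summed per class and library. Intervals are 95%: exact Poisson for levels, exact binomial for shares and exact conditional for ratios (scipy 1.17.1). Genes with at least 100 UMIs in a class, both libraries together for ratios and each alone for variances, entered the counts over all genes. Cells were thinned to 2000 UMIs for shares. Residual variances used a theta of 100. The calculation of ratios and variances was tried on simulated counts with known answers, which is no test of these data. With 1 library per genotype there was no test. Positions are those of GENCODE M21 (GRCm38) and promoters those of RefSeq (GRCm38.p6).

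The members and all lists were chosen with earlier results of these data known. Named in full are the members, ligands, receptors, kinases, transcription factors other than 1 that is not reported here, the 5 other effectors with most UMIs, and the genes most like the members. Usp18, Socs1, Socs3, Cxcl9 and Cxcl10 were named after their values were seen.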

Additional observations from a re-analysis of the deposited data

Results flagged for a closer look

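Rsad2 in EC-like cells went against its direction elsewhere. Its log2 ratio of dKO to Ctrl was -0.50 (-0.70 to -0.30), from 1115 UMIs in Ctrl and 257 in dKO, while 10 of the 13 classes had intervals above 0 (9 without the highest cell of each class and library). With no doublets removed the EC-like log2 ratio was 0.061, so the direction turned. The difference between classes was not tested, since there is 1 library per genotype. A single Ctrl cell held 236 of the 1115 UMIs, and without the highest cell of each library the ratio was 0.837 (0.723–0.967). Without the highest cells, smooth muscle/pericyte-like cells also had a ratio below 1, 0.316 (0.112–0.724), from 68 and 6 UMIs, and that of tenocyte-like cells was 1.18 (0.245–4.98).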

How the results depend on the processing

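The summed log2 ratio was 1.36 in FAP-like cells, 1.26 in MO/MP-like cells and -0.06 in EC-like cells. It was 1.42 in FAP-like cells when scaled to the median ratio of all genes and 1.63 without Bst2. For MO/MP-like cells it was 1.20 with all variable genes in the clustering, 1.31 without integration and 1.43 without Bst2. The EC-like value changed sign, to 0.29 with no doublets removed, 0.14 with all variable genes, 0.070 with the CPM of single cells averaged and 0.085 without the highest cells. The EC-like log2 ratio of Rsad2, -0.50, was 0.061 with no doublets removed. MO/MP-like cells held 39.0% of member UMIs in Ctrl and 39.2% in dKO. Those shares were 36.5% and 37.3% with no doublets removed, 39.6% and 35.5% with all variable genes, 41.9% and 42.2% without integration, 41.6% and 40.4% without the highest cells and 41.3% and 44.4% without Bst2. They were 45.8% and 47.1% at resolution 0.4, and the same with the Fcna cluster counted as MO/MP-like, a choice added after the clusters had been seen. The share of cells with 5 or more members was higher in dKO by 2.44 points in FAP-like cells and 10.7 points in MO/MP-like cells. It was 0.962 and 3.48 points at 1000 UMIs, and 10.3 and 26.2 points for 3 or more members. With a minimum of 300 UMIs 3 of the 4 members left were over-dispersed in FAP-like cells of Ctrl, against 6 of 8 at 100.

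The single members stayed above 0 in all 70 alternative values for FAP-like cells (0.89 to 2.37) and all 80 for MO/MP-like cells (0.81 to 2.77). For EC-like cells 43 of 70 were above 0 (-2.37 to 2.26). No paired analysis was possible because each genotype has 1 library, for which reason no replicate could be left out. Depth limits Mx1, Oasl1 and Ifi44 in the small classes, where a member often had fewer than 100 UMIs.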

Other observations

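Cells with an Ifnb1 UMI were few and held many member UMIs. The 10 such cells of Ctrl had a median of 34.5 member UMIs and the 8 of dKO a median of 58.5, and each held at least 3 members. MO/MP-like cells without Ifnb1 had medians of 4 and 11 member UMIs, and those of the Fcna cluster 2 and 9. Median depths were 7300.0 and 6184.5 UMIs for the cells with Ifnb1, 9013.5 and 7452 for MO/MP-like cells without it, and 2529 and 2824.5 for those of the Fcna cluster, which were over 2-fold shallower. A cell can lack an Ifnb1 UMI at this depth and still express the gene.

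The cells with the largest share of member UMIs were a pair of endothelial cells of Ctrl. An EC-like cell had 656 of its 8477 UMIs in the members (7.74%), with 236 of Rsad2, 183 of Isg15, 91 of Ifit1 and 73 of Ifit2, and 114 UMIs of Cxcl10. It held 17 UMIs of Lyve1, 1 of Prox1 and 0 of Flt1 and Gpihbp1. A lymphatic EC-like cell had 611 of 8012 (7.63%), among them 211 of Rsad2, with 17 UMIs of the lymphatic marker Prox1 and 1 of Ifnb1. The next cell, also EC-like and of Ctrl, had 4.28%. The lymphatic EC-like cell held 80.7% of the member UMIs of its class of 18 Ctrl cells.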
